A study of Mus musculus with 8 samples.

Results

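Transcript levels of 10 immediate early genes, Arc, Btg2, Ier2, Ier3, Ier5, Nr4a1, Nr4a2, Nr4a3, Zfp36 and Plk2, were compared between Lats2-/- and wild-type mouse embryonic fibroblasts (MEFs). They were chosen by name, as serum-response genes outside the EGR, AP-1, DUSP and KLF families, among 27745 gene names on the array, and 14 probes of 41174 carry their names. Earlier results of these data were known when the choice was made. MEFs are cells grown out from embryos. The labels give the strain C57BL/6J and the genotypes Lats2-/- and Lats2+/+, with no treatment of the cultures, and all cells of both genotypes were kept in DMEM with inactivated fetal bovine serum, penicillin and streptomycin. Each genotype is represented by 1 named clone in each of 3 litters, numbered 112, 116 and 121, so that there were 3 Lats2-/- and 3 Lats2+/+ extracts of total RNA. The numbers are those that the clone names of a pair share. The age of the embryos, the density of the cultures and the time since their last change of medium are not given in the sources used here. Lats2 encodes a Ser/Thr kinase of the Hippo pathway, and the comparison asks which transcripts differ when it is lost.

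Immediate early genes are transcribed within minutes of a stimulus such as serum, from factors that are already present in the cell, and need no new protein. Growth factor signals reach them through the MAP kinase cascade, which acts on the serum response factor SRF and its partners at a DNA element called the CArG box, and through CREB at the cAMP response element (CRE). Their mRNAs are as a rule short-lived, so that their level can change quickly. In fibroblasts they are best known from the response of resting cells to serum.

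RefSeq promoter sequences were available for 8 of the 10 genes, in build GRCm38.p6, and were searched on both strands over the 250 bases before the transcription start. Those of 4 genes are shown because they carry the elements named above: Nr4a1 had the largest ratio of the 10 genes, Nr4a2 is its relative with a small one, and Zfp36 and Btg2 were higher in Lats2-/- cells in every litter. Each runs 5′ to 3′ in the direction of transcription and ends at the base before the start. Capitals mark the CArG box in Zfp36, the full CRE (TGACGTCA) in Btg2, and the short form of the CRE (TGACG, which reads CGTCA where it lies on the opposite strand) in both Nr4a genes.
Nr4a1 (chr15:101266596-101266845, plus strand): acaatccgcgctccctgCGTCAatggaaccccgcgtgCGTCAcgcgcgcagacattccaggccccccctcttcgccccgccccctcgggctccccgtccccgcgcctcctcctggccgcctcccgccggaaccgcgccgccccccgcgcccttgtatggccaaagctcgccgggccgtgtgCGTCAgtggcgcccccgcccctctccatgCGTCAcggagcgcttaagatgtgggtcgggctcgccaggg
Nr4a2 (chr2:57124004-57124253, minus strand): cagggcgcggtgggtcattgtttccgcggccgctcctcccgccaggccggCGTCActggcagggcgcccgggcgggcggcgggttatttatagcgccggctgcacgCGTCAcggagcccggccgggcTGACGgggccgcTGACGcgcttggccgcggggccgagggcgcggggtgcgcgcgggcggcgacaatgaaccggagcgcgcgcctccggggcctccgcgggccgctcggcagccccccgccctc
Zfp36 (chr7:28379229-28379478, minus strand): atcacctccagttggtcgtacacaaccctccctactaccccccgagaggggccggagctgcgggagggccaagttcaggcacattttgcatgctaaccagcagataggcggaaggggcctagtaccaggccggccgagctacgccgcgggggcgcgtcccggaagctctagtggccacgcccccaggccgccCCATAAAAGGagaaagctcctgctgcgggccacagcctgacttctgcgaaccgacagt
Btg2 (chr1:134079156-134079405, minus strand): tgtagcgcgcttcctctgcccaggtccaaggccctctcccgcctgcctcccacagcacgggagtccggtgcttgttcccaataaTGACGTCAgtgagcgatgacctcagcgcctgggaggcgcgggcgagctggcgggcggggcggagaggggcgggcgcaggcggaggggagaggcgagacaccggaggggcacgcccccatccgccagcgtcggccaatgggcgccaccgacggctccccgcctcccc

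Only exact matches were counted, with the CArG box taken as CC and GG around letters A and T alone. The CArG box of Zfp36 lies 58 to 49 bases before its start, and no other of the 8 promoters held an exact match, against 1.47% of all 32851 promoters in the table. The full CRE was present in Btg2, at 166 to 159 bases before the start, and in Plk2, at 62 to 55 bases, against 1.55% of all promoters. The short form was found in 5 of the 8 promoters, against 17.8% of all, and a full CRE holds 2 overlapping copies of it. Nr4a1, Nr4a2 and Nr4a3 each held 4 copies, a number reached by 45 promoters of the table, or 0.137%. This number was chosen after the matches were seen, and the short form holds the letters CG, while the GC content of the 8 windows ranged from 54.4% in Ier3 to 80.0% in Nr4a2, against a median of 52.4% over all promoters. No exact match to the AP-1 site (TGANTCA, present in 6.75% of all promoters) was found in any of the 8, and near matches were not searched. The TEAD motif GGAATG was found in Nr4a1 and Nr4a3 (12.6% of all promoters) and TATAAA in Nr4a2 (12.4%). A match is a description of the letters in this window and not a bound site, and the lack of an exact match does not exclude a similar element.

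The arrays are Agilent 2-colour arrays, on which the Lats2-/- and the Lats2+/+ extract of a litter were hybridised together with different dyes. Litters 112 and 116 have 2 arrays each and litter 121 has 4, with the dyes swapped within each pair, and litters 112 and 116 lie on slide 1 and litter 121 on slide 2. All ratios are Lats2-/- over Lats2+/+ on the log2 scale, averaged over the arrays of a litter, and the litter is the replicate (n = 3). The targeted gene has 4 probes. The one nearest its 5′ end was lower in Lats2-/- in each litter, at -1.33, -1.05 and -0.56 (litters 112, 116 and 121), while the other three were lower in litters 112 and 116, between -0.18 and -0.70, and higher in litter 121, at 0.80, 1.12 and 1.17. The sources used here do not say which part of the gene was deleted, so these 3 probes check neither genotype, and values without litter 121, which are also those within slide 1, are given below. The share of gene probes well above background ranged from 52.9% to 61.3% over the channels.

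Of the 14 probes, 13 passed the filter on dim probes (well above background in 2 or 3 extracts of 1 genotype) and were tested. They stand for 9 genes. After Benjamini-Hochberg adjustment in limma over all 22642 such probes, none of the 13 and none of the 22642 (0%) passed 0.05, and the smallest adjusted p of the 13 was 0.634. At an unadjusted p under 0.05, 8 of the 13 probes were higher in Lats2-/-, or 61.5%, against 3.56% of all probes tested, and 0 were lower, against 3.29%. These 8 probes belong to Nr4a1, Arc, Zfp36, Ier2 and Btg2. With a difference of at least 2-fold asked for as well, 7 of the 13 probes remained, or 53.8%, against 0.636% of all probes tested, and 0 were lower by that measure, against 0.199%. In all 3 litters alike, 10 probes were higher in Lats2-/-, or 76.9%, against 15.0% of all probes tested, and 0 were lower, against 14.8%. Where the 8 arrays entered the fit with litter or slide as a random block, 5 of the 13 probes (against 1.51% of all) and 3 (against 3.17%) passed the adjusted threshold, but the arrays of a litter share extracts. The probes of a gene share its mRNA and are not independent of each other, and the genes themselves share extracts. Because the genes were chosen with earlier results of these data known, the shares describe them and do not test them. Over the 9 genes, each by its brightest probe, the median of the means over litters was 1.22 on the log2 scale, against 0.013 over the 14791 genes with such a probe, and the medians within litters 112, 116 and 121 were 1.75, 0.85 and 0.61.

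**Figure D1:**
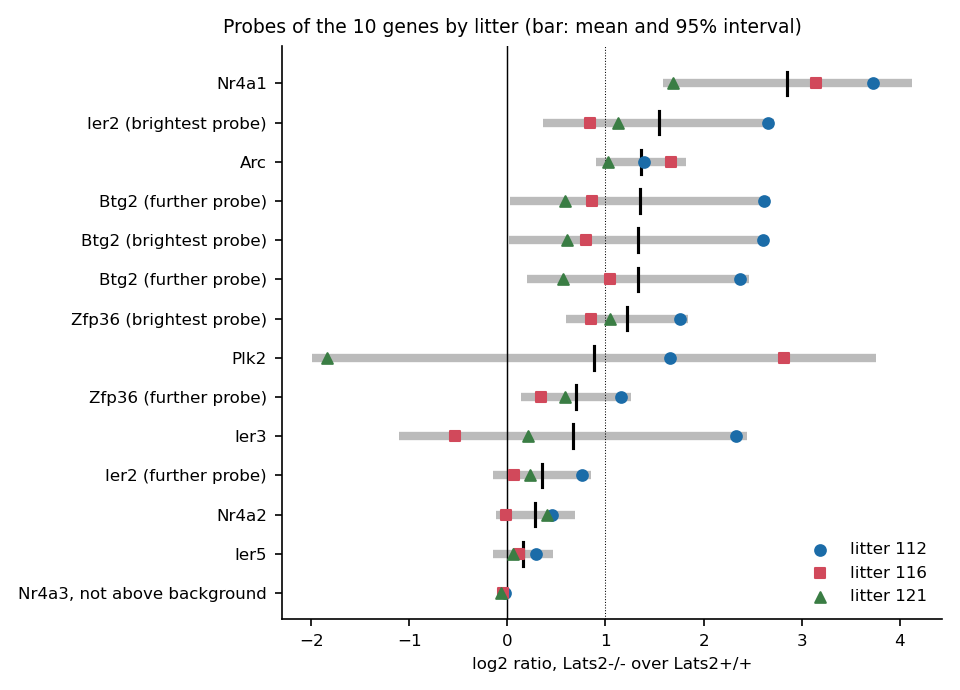
Log2 ratio of Lats2-/- over Lats2+/+ (x axis) for the 14 probes of the 10 genes (rows), with a point for each of the 3 litters, and for the 13 probes tested the mean as a black line and its 95% interval from limma as a grey bar; Nr4a3, at background, has neither, and the dotted line is at 2-fold. All 3 litters lie above 0 for Nr4a1, Ier2, Arc, Btg2, Zfp36 and Ier5, litter 121 of Plk2 lies at -1.84, and litter 112 is the highest point of most rows.

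Among the nuclear receptors, Nr4a1 (also called Nur77), an orphan receptor that acts as a transcription factor without a known hormone, had the highest ratio. Its probe lies on the plus strand of chromosome 15, at 101102674 to 101102733 in the mm8 build used by the files. The log2 signal was 15.51, 14.17 and 12.92 in Lats2-/- cells from litters 112, 116 and 121, and 11.78, 11.02 and 11.24 in the Lats2+/+ extracts. All 3 Lats2-/- extracts were above all 3 wild-type extracts, and the Lats2-/- extracts spread over 2.58 log2 units while the wild-type extracts spread over 0.75. Within litters the ratio was 13.3-fold, 8.86-fold and 3.22-fold. The mean log2 ratio was 2.85 (95% interval 1.58 to 4.12), or 7.23-fold (unadjusted p 0.00364, adjusted p 0.711 in limma). Of the 22642 probes tested, 7 had a higher mean ratio.

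Nr4a2 (Nurr1), a related orphan receptor known from dopaminergic neurons, is read by 1 probe (chromosome 2, minus strand, 56923674 to 56923733). Its log2 signal was 9.85, 11.09 and 9.09 in the Lats2-/- extracts and 9.39, 11.10 and 8.69 in the Lats2+/+ extracts, in the same order of litters. Both extracts of litter 116 were above all others, so that the litters differed more than the genotypes did. The ratios were 0.46, -0.01 and 0.40, with a mean of 0.28 (95% interval -0.12 to 0.69) and an unadjusted p of 0.120. Without litter 116 the mean was 0.43, with an unadjusted p of 0.0444 and adjusted 0.834. The mean was 0.14 over the arrays with Lats2-/- in Cy5 and 0.43 over those with Lats2-/- in Cy3, and each litter holds both orientations equally. Nr4a3 (Nor1), the third member of the family, was not well above background in either channel of any of the 8 arrays, and no fold is given for it. Its probe is aligned in the files across 3187 bases of chromosome 4 (plus strand, 48088918 to 48092104).

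Arc, a cytoskeleton-associated protein best known for its part in synaptic plasticity in neurons, was the member whose ratio varied least between litters among those above 2-fold. Its probe lies on the minus strand of chromosome 15, at 74496422 to 74496481. The log2 signal was 10.32, 8.52 and 8.50 in Lats2-/- cells from litters 112, 116 and 121 and 8.92, 6.86 and 7.47 in the wild-type extracts. The groups overlapped, since the wild-type extract of litter 112 was above the Lats2-/- extracts of litters 116 and 121, but within every litter the Lats2-/- extract was higher. The difference was 2.63-fold, 3.18-fold and 2.04-fold, with a mean log2 ratio of 1.36 (95% interval 0.90 to 1.83, unadjusted p 0.00136, adjusted p 0.634 in limma). Arc and Nr4a1 were at least 2-fold higher in each of the 3 litters, as were 0.212% of all probes tested.

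Zfp36 and Btg2 both act on the stability of mRNA. Zfp36 (tristetraprolin) binds AU-rich elements of mRNAs and brings them to the CCR4-NOT deadenylase. Its brighter probe (chromosome 7, minus strand, 28085873 to 28085932) gave log2 signals of 11.04, 8.92 and 10.00 in the Lats2-/- extracts and 9.29, 8.07 and 8.96 in the wild-type extracts. The groups overlapped, with the wild-type extracts of litters 112 and 121 above the Lats2-/- extract of litter 116. The ratios were 1.75, 0.85 and 1.04, with a mean of 1.22 (95% interval 0.60 to 1.84, unadjusted p 0.00592, adjusted p 0.711 in limma). The dimmer probe (28085681 to 28085740) gave ratios of 1.16, 0.34 and 0.59, in the same order of litters, with a mean of 0.70 and an unadjusted p of 0.0265.

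Btg2, an antiproliferative protein of the BTG/TOB family that binds the same deadenylase, has 3 probes on the minus strand of chromosome 1, at 135891928 to 135891987, 135893750 to 135893809 and 135894015 to 135894074. The brightest, the second of these, gave log2 signals of 11.54, 9.36 and 10.68 in the Lats2-/- extracts and 8.94, 8.57 and 10.07 in the wild-type extracts. In the wild-type extracts litter 121 was the highest, and in the Lats2-/- extracts litter 112 was. The ratio was 2.60, 0.80 and 0.61 (litters 112, 116 and 121), and the other probes gave 2.37 and 2.61, 1.05 and 0.86, and 0.57 and 0.59. The 3 probes thus gave means of 1.33, 1.34 and 1.35, with unadjusted p-values from 0.0315 to 0.0487. Without litter 112 the mean of the brightest probe was 0.70, and without litter 116 the unadjusted p of the 3 probes was 0.0797 to 0.0847. For 2 of the 3 probes it was 0.0502 and 0.0539 with median centring in place of loess and 0.0669 and 0.0688 with no filter on dim probes, and for all 3 it was at least 0.133 with the methods' t-test.

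The name Ier stands for immediate early response. Ier2 is a nuclear protein induced by growth factors. Its brighter probe (chromosome 8, minus strand, aligned over 35 bases at 87549656 to 87549690) gave log2 signals of 13.00, 11.77 and 11.62 in the Lats2-/- extracts and 10.34, 10.92 and 10.49 in the wild-type extracts, so that the groups did not overlap. The ratios were 2.66, 0.85 and 1.13, with a mean of 1.54 (95% interval 0.37 to 2.72, unadjusted p 0.0224, adjusted p 0.711 in limma). Without litter 112 the mean was 0.99, and with the methods' t-test over all 3 litters the unadjusted p was 0.111. Its further probe (87549829 to 87549887) was well above background on 7 of 8 arrays in the Lats2-/- channel and on 6 in the wild-type channel, and gave 0.76, 0.07 and 0.23, with a mean of 0.35 and an unadjusted p of 0.123. From the processed signals of the scanner software, the mean of this dim probe was 1.17, with an unadjusted p of 0.0508. Leaving out litter 112 in the main fit gave it a mean of 0.15. Of all members, 2 of the 13 probes, those of Nr4a1 and Ier2, had all Lats2-/- extracts above all wild-type extracts, or 15.4%, against 3.10% of all probes tested, and 0 had all of them below, against 3.03%.

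Ier3, a stress-induced protein linked to cell survival (chromosome 17, plus strand, 35430636 to 35430695), had log2 signals of 11.23, 10.05 and 10.14 in the Lats2-/- extracts and 8.90, 10.59 and 9.94 in the wild-type extracts. Litter 112 held both the highest and the lowest of the 6 values. The ratios were 2.33, -0.54 and 0.21, with a mean of 0.67 (95% interval -1.11 to 2.44) and an unadjusted p of 0.351, and without litter 112 the mean was -0.17. Ier5, a regulator of heat shock factor 1 (chromosome 1, minus strand, 156859866 to 156859925), had log2 signals of 13.85, 13.22 and 13.88 in the Lats2-/- extracts and 13.55, 13.10 and 13.82 in the wild-type extracts. The ratios were 0.29, 0.12 and 0.06, with a mean of 0.16 (95% interval -0.15 to 0.46) and an unadjusted p of 0.220. Without litter 112 the mean was 0.088, and with median centring it was 0.090. The mean was 0.04 over the arrays with Lats2-/- in Cy5 and 0.27 over those with Lats2-/- in Cy3, and this difference cancels in the mean over both.

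Plk2, a polo-like kinase of the centrosome and a known p53 target (chromosome 13, plus strand, 111521585 to 111521644), was the member with the widest spread. Its log2 signal was 11.38, 10.93 and 9.64 in Lats2-/- cells from litters 112, 116 and 121 and 9.72, 8.11 and 11.48 in the wild-type extracts. The lowest and the highest of the 6 values were both wild-type, in litters 116 and 121. The ratio was 3.16-fold and 7.08-fold in litters 112 and 116 and 0.279-fold in litter 121, with a mean log2 ratio of 0.88 (95% interval -2.00 to 3.76) and an unadjusted p of 0.438. Within slide 1 (litters 112 and 116) the mean was 2.24 (unadjusted p 0.00815, adjusted p 0.734 in limma), and without litter 116 it was -0.091. With slide as a random block over the 8 arrays the mean was 0.20. In litter 121, 22410 of the 22642 probes had a higher ratio than Plk2, and in litter 116, 93 had.

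**Figure D2:**
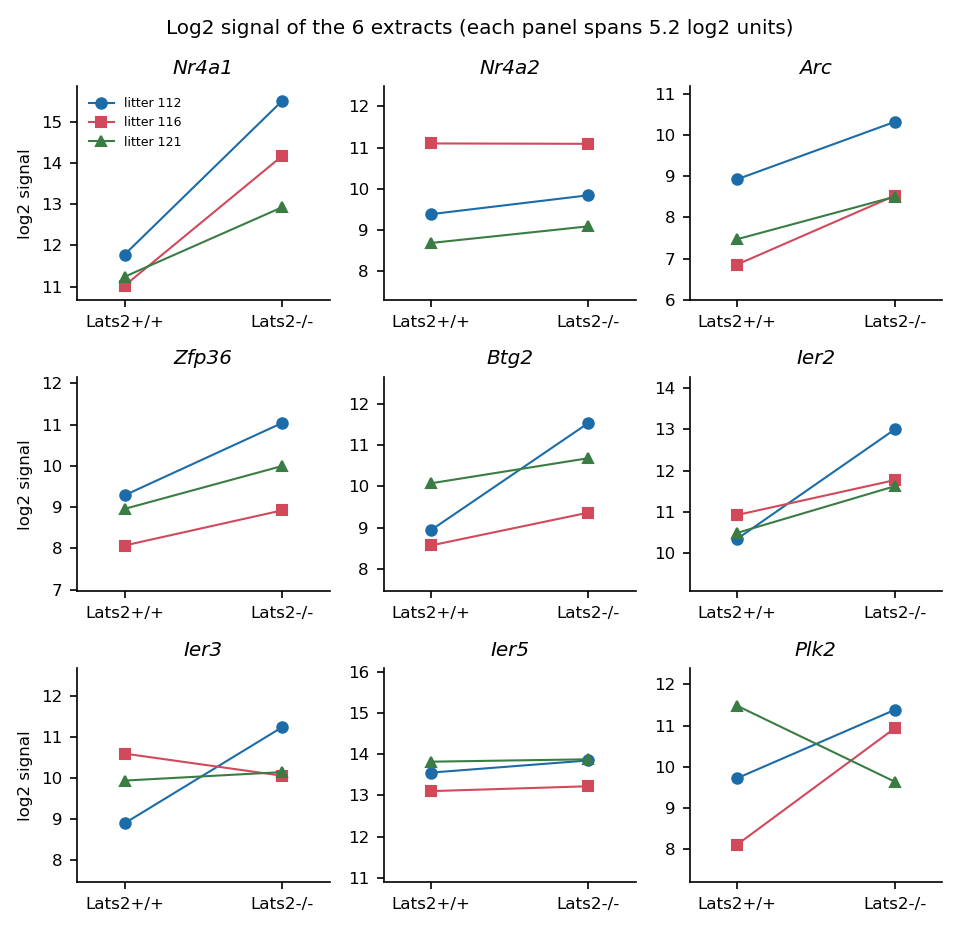
Log2 signal (y axis, each panel on its own range of 5.2 log2 units) in the Lats2+/+ and Lats2-/- extract of each litter, joined by a line, for the brightest probe of the 9 genes above background. The lines of Nr4a1, Arc, Zfp36, Btg2 and Ier2 rise to the right in all 3 litters, that of litter 112 runs from the lowest to the highest value in Ier3, and in Plk2 litter 121 runs from 11.48 down to 9.64.

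The arrays of a litter hold the same pair of extracts, so that the spread between them is technical. By the brightest probe, it was smaller than the spread between litters in every litter for Nr4a1, Arc, Zfp36, Btg2, Ier2, Ier3, Plk2 and, narrowly, Nr4a2. For Nr4a1 the SD between the arrays was 0.20, 0.05 and 0.03 in litters 112, 116 and 121, against 1.05 between the litter ratios, and for Plk2 it was 0.23, 0.12 and 0.24 against 2.43. For Nr4a2 it was 0.21, 0.25 and 0.13 against 0.26. For Ier5 it was 0.20, 0.17 and 0.10 against 0.12, and so larger than the spread between litters in litters 112 and 116. The 4 arrays of litter 121 gave Nr4a1 log2 ratios of 1.66 to 1.72. Nr4a1, Arc, Zfp36, Btg2 and Ier2 were higher in Lats2-/- on 8 of 8 arrays, Nr4a2 on 7, Ier3 on 6, Ier5 on 5 and Plk2 on 4.

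**Figure D3:**
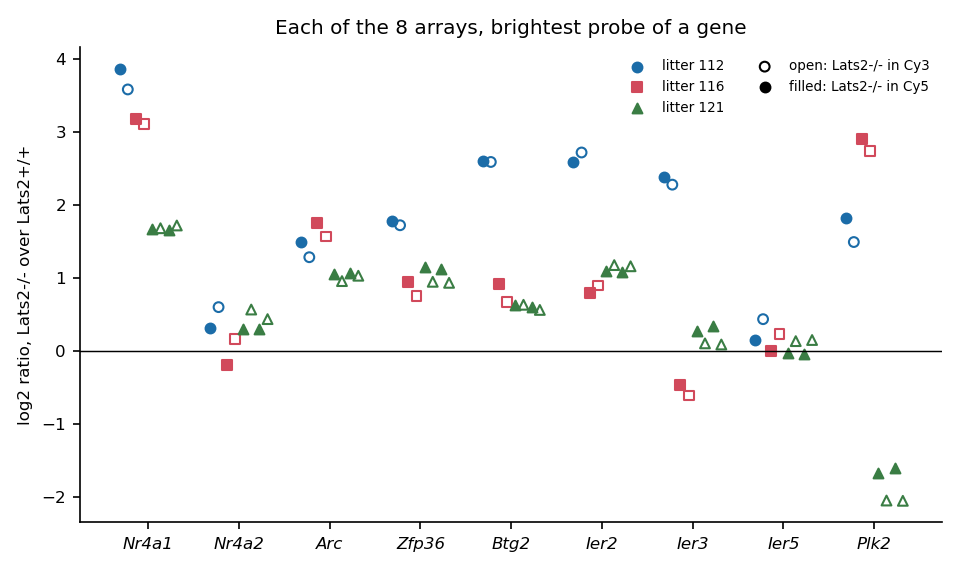
Log2 ratio of Lats2-/- over Lats2+/+ (y axis) on each of the 8 arrays for the brightest probe of each of the 9 genes, with the litter by colour and shape and the dye of the Lats2-/- extract by fill. The 4 arrays of litter 121 lie at 1.66 to 1.72 for Nr4a1, apart from the other litters, while the arrays of all 3 litters overlap for Ier5 and those of litters 112 and 121 for Nr4a2.

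Litter 112 gave the highest ratio for 7 of the 9 genes, and litter 116 for Arc and Plk2. At least 2-fold higher in Lats2-/- were 10 of the 13 probes in litter 112, against 2.54% of all probes tested, 4 in litter 116, against 4.59%, and 4 in litter 121, against 3.38%. At least 2-fold lower in litter 121 was 1 probe, that of Plk2, against 2.70%. Leaving out litter 112 gave a median over the 9 genes of 0.70, and 7 of the 13 probes were higher with an unadjusted p under 0.05, against 2.66% of all probes. Leaving out litter 121, whose Lats2 probes went both ways, gave a median of 1.53 and 8 such probes, against 3.34% of all, and leaving out litter 116 gave 1.27 and 6, against 3.09%. These were not always the same probes: the dimmer probe of Zfp36 was not among them without litter 112 or without litter 121, Plk2 was among them without litter 121, and without litter 116 the 3 probes of Btg2 were not and Nr4a2 was. Without litter 121 the mean log2 ratio was 3.44 for Nr4a1, 1.53 for Arc, 1.30 for Zfp36, 1.70 for Btg2, 1.75 for Ier2, 0.90 for Ier3, 0.22 for Nr4a2 and 0.21 for Ier5, beside the value of Plk2 above. In none of the 3 did any of the 13 probes pass the adjusted threshold. An exact two-sided sign-flip test over 3 litters cannot give a p below 0.25.

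**Figure D4:**
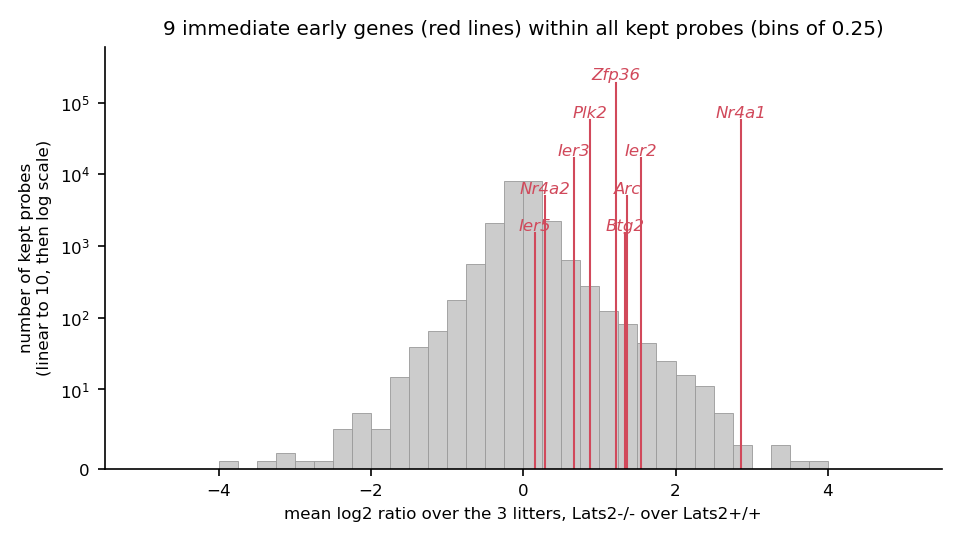
Number of probes (y axis, linear to 10 and logarithmic above) by their mean log2 ratio over the 3 litters (x axis, bins of 0.25) for the 22642 probes tested, with the brightest probe of each of the 9 genes as a red line whose height has no meaning. All 9 lines lie above 0, from 0.16 for Ier5 to 2.85 for Nr4a1, above which 7 of the 22642 probes lie.

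The genes around these 10 were taken from lists of the same families and pathways. Of their paralogs, 10 had a probe above background (Btg1, Btg3, Tob1, Tob2, Ier5l, Zfp36l1, Zfp36l2, Plk1, Plk3 and Plk4), and 0 had an unadjusted p under 0.05, against 4.14% of all genes in the higher and 3.45% in the lower direction. Zfp36l1, which binds the same AU-rich elements as Zfp36, gave 0.87, 0.46 and 0.09 in litters 112, 116 and 121, with a mean of 0.48 (95% interval -0.06 to 1.01). Zfp36l2 gave 0.14, 0.15 and -0.13. Btg1, the nearest relative of Btg2, gave 0.05, -0.43 and -0.63, with a mean of -0.34 (95% interval -0.83 to 0.15). Btg3 gave -0.22, -0.92 and 0.48, Tob1 -0.09, -0.23 and 0.47, and Tob2 -0.28, -0.27 and 0.17. These intervals leave room for differences of either sign in all 10 paralogs.

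Plk3, itself a stress- and serum-responsive kinase, gave 0.50, 0.05 and 0.65, with a mean of 0.40 (95% interval -0.05 to 0.85). The mitotic kinase Plk1 gave -1.18, -0.24 and 0.39, and Plk4, which starts centriole duplication, gave -0.53, -0.45 and 0.31. Neither had the order of litters seen for Plk2. Ier5l gave -0.58, -0.11 and -0.06.

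Of 39 further immediate early genes with a probe above background, from the EGR, FOS, JUN, DUSP and KLF families and beyond, 12 had an unadjusted p under 0.05, all higher in Lats2-/-, or 30.8%, against 4.14% of all genes, and 32 had a mean above 0, as did 52.9% of all genes. Their median log2 ratio was 0.48, with 0.92, 0.28 and 0.63 in litters 112, 116 and 121. Of 17 SRF partners and MAP kinase pathway genes, 3 had an unadjusted p under 0.05, all higher, or 17.6%, against 4.14% of all genes. Srf itself gave 0.44, 0.73 and 0.19 (unadjusted p 0.0382), Mapk3, which encodes the kinase ERK1, gave 0.31, 0.51 and 0.80 (0.0189), and Rps6ka5, a kinase that acts on CREB and histone H3 below ERK, gave 0.52, 0.18 and 0.46 (0.0357). The adjusted p was 0.711 for each of them, and the list's median was 0.13.

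The partners and targets of Zfp36 and Btg2 were listed as well. Of 10 CCR4-NOT subunits, 0 had an unadjusted p under 0.05, against 4.14% of all genes in the higher and 3.45% in the lower direction, so a count of 0 lies near the background. Their median was -0.03. Of 13 mRNAs known to be bound by Zfp36, 7 had a probe above background, 4 of which (Ccl2, Cxcl1, Myc and Ptgs2) also stand in the list of further immediate early genes. None of the 7 had an unadjusted p under 0.05, a count that also lies near those shares, and their medians within litters 112, 116 and 121 were -0.06, 0.72 and -1.32.

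Of 25 proliferation genes, 24 had a mean below 0 and 2 had an unadjusted p under 0.05, both lower in Lats2-/-, against 47.1% and 3.45% of all genes. These were Ccnb2, a mitotic cyclin, at -0.35, -0.55 and -0.47, and Mcm6, a subunit of the replicative helicase, at -0.73, -0.76 and -0.54. The list had medians of -0.58, -0.55 and 0.26 within litters 112, 116 and 121. Its part in the ratios of Btg2 and the other members was not tested.

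The 10 fibroblast markers were all above background, 9 of them in all 6 extracts, and their summed signal on the linear scale ranged from 240578 to 585138 in the Lats2-/- extracts and from 229350 to 474873 in the wild-type extracts. Their median log2 ratio was 0.10, 1.95 and -0.93 in litters 112, 116 and 121. The ratios of Plk2 and Arc were likewise highest in litter 116 and lowest in litter 121. Of the markers of other cell types, 3 of 6 for macrophages were above background, namely Cd14, with -0.60, -1.64 and -0.74 (unadjusted p 0.0192, adjusted p 0.711 in limma), Csf1r, with 0.04, 0.30 and -0.08, and Cd68, with 0.36, -0.32 and -0.16, while Ptprc, Adgre1 and Itgam were not. Cd14 was thus 1 of 3 called lower at the unadjusted threshold, against 3.45% of all genes. It was above background in all 6 extracts, Cd68 in 4 and Csf1r in only 2. For endothelial cells 1 of 5 was above background (Tek), for epithelium 0 of 4, for neurons 2 of 4 and for red cells 2 of 4. The summed signal of the macrophage markers ranged from 287 to 770 in the Lats2-/- and from 390 to 1988 in the wild-type extracts, that of Tek from 83.3 to 102.7 and from 82.0 to 91.9, that of the neuron markers from 690 to 1017 and from 789 to 3396, where the highest value came from Nefl in the wild-type extract of litter 116, and that of the red cell markers from 166 to 170 and from 172 to 182. These linear sums hold the offset of 50 that was added to every spot before normalization. Fewer cells of a kind and less RNA per cell cannot be told apart in such extracts, and the part of these differences in the members' ratios was not tested.

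**Figure D5:**
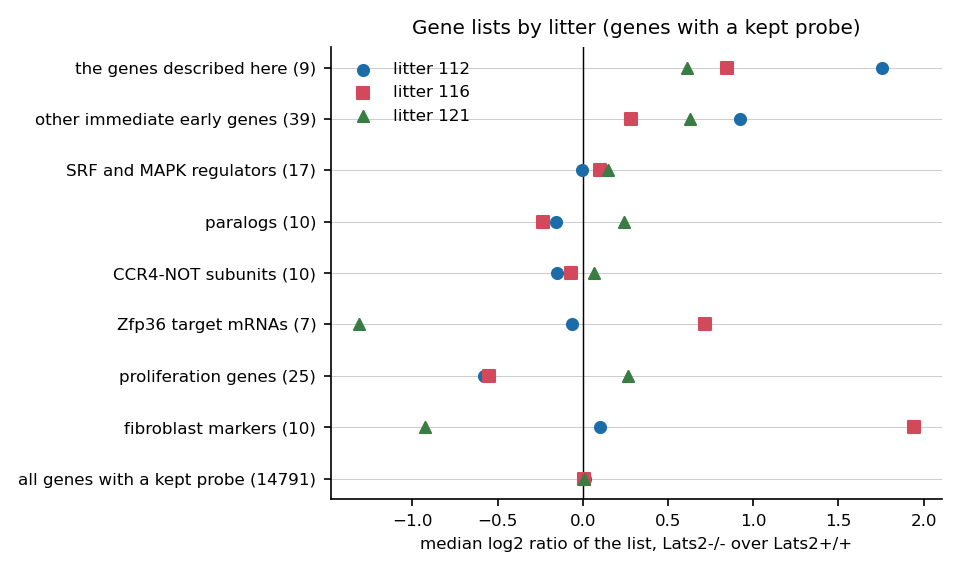
Median log2 ratio of Lats2-/- over Lats2+/+ (x axis) in each of the 3 litters for the 9 genes described here and for the lists set beside them (rows, with the number of genes above background). The medians of the 9 genes lie at 1.75, 0.85 and 0.61, those of all 14791 genes near 0, and those of the fibroblast markers spread from -0.93 to 1.95.

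Over the 6 extracts, each gene's log2 signal less its own mean was set against the mean profile of the 9 genes. That profile was 1.35, 0.27 and 0.10 in Lats2-/- cells from litters 112, 116 and 121 and -0.53, -0.81 and -0.38 in the wild-type extracts. Against the profile of the other eight, Nr4a1 had the highest Pearson r, 0.93, followed by Ier2 at 0.91, Zfp36 at 0.83, Arc and Btg2 at 0.79, Ier3 at 0.53, Plk2 at 0.50 and Ier5 at 0.42, while Nr4a2 had -0.16. The 5 other genes most like the profile were Egr2 (r = 0.99), Slc25a20 (0.98), Egr1 (0.98), Dhx35 (0.97) and Tfpi (0.97). Egr2 and Egr1 are zinc-finger transcription factors and immediate early genes themselves, Slc25a20 is a mitochondrial carnitine carrier, Dhx35 an RNA helicase and Tfpi an inhibitor of coagulation. With 6 points that share arrays and litters, 89 of 14782 other genes had an r of at least 0.90, so these names are a description of the extracts.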

How the data were processed

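RNA of 3 Lats2-/- and 3 Lats2+/+ MEF extracts was measured on 8 Agilent 2-colour arrays (design 14868, probe coordinates in mm8). The authors scanned the arrays and read the images with Feature Extraction (10.7.3.1 in the file headers, 10.5.1.1 in the submitters' processing notes). The deposited scanner files hold intensity values of each spot and its local background on a linear scale, not normalized, together with flags. They also hold processed intensity values and their log10 ratio of red over green, which the authors' software had corrected for background and dye. The deposited value table holds the same log10 ratios, turned to Lats2-/- over Lats2+/+ on every array (largest difference 0.00500).

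Intensities were corrected with normexp (offset 50) using limma 3.58.1 (R 4.3.3). Of 43379 gene spots on each of 8 arrays, 860 in all were outliers and were dropped, as were control spots, and 0 were saturated. Ratios were normalized by loess within arrays, turned, and averaged per probe and litter. The offset draws ratios of dim probes towards 0. Probes well above background in at least 2 of 3 extracts of either genotype were kept (22642). Aquantile after loess gave the signal of each extract. Litter ratios were tested against 0 with limma (lmFit, eBayes, two-sided, Benjamini-Hochberg over the kept probes). The fit had been run on simulated litter ratios with known changes. These were drawn independently for each probe, so that run does not cover probes that vary together. Pairing comes from the arrays, each of which holds both extracts of a litter. P-values rest on the spread between these litters, with the variance of each probe moderated over all kept probes by eBayes. The methods' t-test uses the spread of the probe alone. Where a gene has several probes, lists and medians use the brightest. With 3 litters and 8 arrays the precision of a ratio is low.

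The 10 genes and all lists were chosen with earlier results of these data known. All 10 genes, Lats2, the paralogs and the 5 genes most like the mean profile are named, and other list genes only where 5 or fewer were counted. Alternatives were another offset, the processed signals, the value table, median centring, other filters, single dye-swap pairs, leaving out a litter, an unpaired fit, random blocks, the methods' t-test and the mean over probes. Protein sequences were not used here.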

Additional observations from a re-analysis of the deposited data

How the results depend on the processing

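The 9 gene means kept their sign in 142 of 144 recomputations over the alternatives run. The exceptions were Ier3 without litter 112 and Plk2 without litter 116: leaving out each litter in turn gave Ier3 between -0.17 and 1.27 and Plk2 between -0.091 and 2.24. The other filters on dim probes, the unpaired fit and the methods' t-test leave these means as they are. Their recomputations are counted here but could not change a sign. Leaving out each litter in turn moved the median over the 9 genes between 0.70 and 1.53 and the count of probes with an unadjusted p under 0.05 between 6 and 8, while no probe passed the adjusted threshold in any of the 3. Without the pairing by litter (no replicate block, limma on the 6 extracts), 2 of the 13 probes had an unadjusted p under 0.05, those of Nr4a1 and Ier2 (against 1.24% of all probes, higher), and with the methods' t-test 3 had, those of Nr4a1, Arc and Zfp36 (against 2.79%), each of which was also at least 2-fold; 0 remained after Benjamini-Hochberg adjustment. With litter as a random block over the 8 arrays, 5 probes passed the adjusted threshold, of Nr4a1, Arc, Zfp36, Ier2 and Btg2 (adjusted p from 0.00142 to 0.0373), as did 341 (1.51%) of all probes, and with slide as a random block 3 did, of Arc, Nr4a1 and Zfp36 (0.00127 to 0.0257), as did 717 (3.17%) of all. Both fits count the arrays of a litter, which share extracts, toward their degrees of freedom. The median over the 9 genes ranged from 0.95, with the mean over all probes of a gene, to 1.34, with the processed signals, over the alternatives that kept all 3 litters. Low signal limits the further probe of Ier2, whose mean of 0.35 was 1.17 with the processed signals, and the probe of Nr4a3, which was not above background on any array.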
